A study of Zea mays with 24 samples.

Results

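The endosperm adjacent to the scutellum (EAS) was compared with the scutellar aleurone layer (SAL), both dissected from maize seeds. The libraries were chosen by tissue label, 4 of EAS and 4 of SAL, which are 8 of the 24 in the series. Seeds came from untreated wild-type plants of the inbred line B73, although SAL replicate 1 is labelled wild type with no line named. The greenhouse gave 16 h of light and was held at 24 °C in the day and 19 °C in the night. The other 16 libraries, 4 each of endosperm (End), apical scutellum (AS), embryo (Emb) and pericarp (Per), entered the model and serve as landmarks below. The labels state neither the age of the seeds nor which face of the embryo either layer was taken from, so both are called here by their tissue names. Nor do they say whether End samples included EAS or SAL tissue.

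The endosperm of a cereal seed is a nourishing tissue that arises, like the embryo, from fertilisation. Its inner cells fill with starch and storage protein, while the aleurone is a surface layer of living cells that stores oil and protein and later secretes enzymes that mobilise the reserves. The scutellum is the absorbing organ of the embryo, and the pericarp is maternal fruit wall around the whole. MicroRNA loci are transcribed as polyadenylated precursors that are cut into small RNAs, which pair with messenger RNAs of specific regulator families and lower their output. The libraries here were poly(A)-selected, so they measured the precursors and not the mature small RNAs.

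The files pair no gene identifier with a name, and none matched the gene table at hand. Genes are therefore printed as identifiers, 2 for each direction, and no role is given to them. Marker lists for aleurone, embryo surrounding region, transfer cells and embryo were not used here for that reason, so the tissue labels could not be checked against defining markers. The 154 microRNA loci are named in the files and carry the named results. In these bulk samples, fewer cells of a type and less RNA per cell cannot be told apart.

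Reads counted in genes lay between 45.3 M and 51.8 M in the EAS libraries, and between 15.1 M and 52.0 M in the SAL libraries. SAL replicate 2 was the shallow one, and the other 3 SAL libraries held at least 42.6 M. Libraries of one tissue had Spearman correlations across genes of 0.989 or more, against 0.857 to 0.889 between an EAS and a SAL library. The first principal component of the 8 libraries carried 92.8% of their variance and had the 4 EAS libraries on one side and the 4 SAL libraries on the other. The second component carried 1.85%.

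Fewer features were detected in EAS than in SAL. At 1 CPM (1 read in each 1 M gene reads) or more, 18536 ± 220.2 features were detected in an EAS library and 21448 ± 179 in a SAL library (SD, n = 4; two-sided exact permutation test, p = 0.0286, the smallest that 4 against 4 allows, and 0.0381 adjusted over 4 measures). Of the features detected in each of the 4 libraries of a tissue, 489 were so detected in EAS but not in SAL and 3404 in SAL but not in EAS, while 17305 were shared. With the reads of each library thinned to the depth of SAL replicate 2, 18239 to 18701 features were detected in EAS libraries and 21200 to 21546 in SAL libraries. EAS reads were also more concentrated. The 10 most abundant genes took 9.32% ± 0.865 of an EAS library and 5.79% ± 0.181 of a SAL library (SD, n = 4; exact permutation p = 0.0286, adjusted 0.0381).

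Of 26543 features tested, 550 were at least 8-fold higher in EAS (2.07%) and 3531 at least 8-fold higher in SAL (13.3%), by the fitted fold and an adjusted p under 0.05 in edgeR's quasi-likelihood test. At any fold, 78.8% of features were called, 9481 of them higher in EAS (35.7%) and 11441 higher in SAL (43.1%). The imbalance grew with the fold: 74 features passed 32-fold toward EAS and 1289 toward SAL, and at 256-fold the counts were 3 and 197. Among features called 8-fold, the EAS and SAL libraries did not overlap for 540 of the 550 and for 3345 of the 3531, where 73% of all features tested showed no overlap. The fitted fold of a feature with few reads in the lower tissue is uncertain. Of the 550, 15 had 0 reads in SAL, and of the 3531, 463 had 0 reads in EAS, of which 222 had a bound under 8-fold when EAS was set to 3 reads in its 4 libraries together. The same 3-read bound stands behind each "at least" fold below. The counts depend on how libraries are scaled. With TMM factors, edgeR's trimmed-mean scaling, the median feature lay at a log2 fold change of -0.14, and with total reads alone at -0.63, which left 358 features 8-fold higher in EAS and 4280 in SAL.

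**Figure D1:**
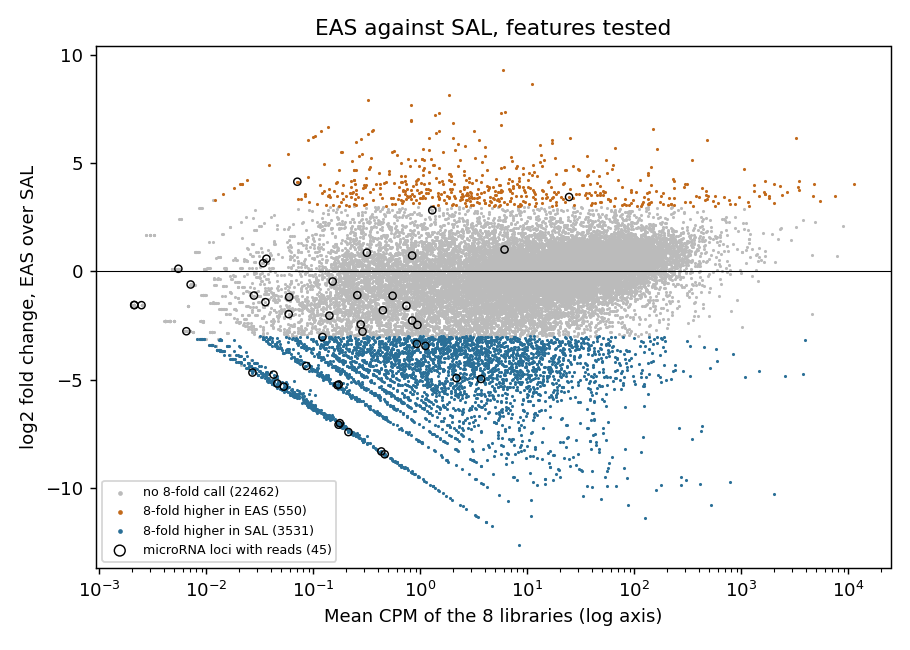
Fitted log2 fold change of EAS over SAL (vertical axis) against the mean CPM of the 8 libraries (horizontal log axis) for the 26543 features tested. Coloured points are the 550 features 8-fold higher in EAS and the 3531 features 8-fold higher in SAL, and open circles are the 45 tested microRNA loci with reads in either tissue. Points along the lower left diagonal lines are features with 0 or few reads in EAS.

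The direction of the imbalance changed with abundance. Among 4819 features under 1 CPM in the higher of the 2 tissues, 102 were 8-fold higher in EAS and 1220 in SAL. Between 10 and 100 CPM the counts were 141 and 791 of 11820 features. At 1000 CPM or more, EAS led, with 34 of 106 features 8-fold higher in EAS and 11 in SAL. Those 34 had their highest level among End, AS, Emb and Per in End, without exception, and 29 of them were End-enriched by the rule given below. EAS itself was the highest of the 6 tissues for 7 of the 34, and SAL for 9 of the 11. The 550 EAS-high features took 15.6% ± 2.49 of the gene reads in EAS libraries and 1.72% ± 0.441 in SAL libraries. The 3531 SAL-high features took 0.409% ± 0.177 in EAS libraries and 11.8% ± 0.230 in SAL libraries (SD, n = 4).

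**Figure D2:**
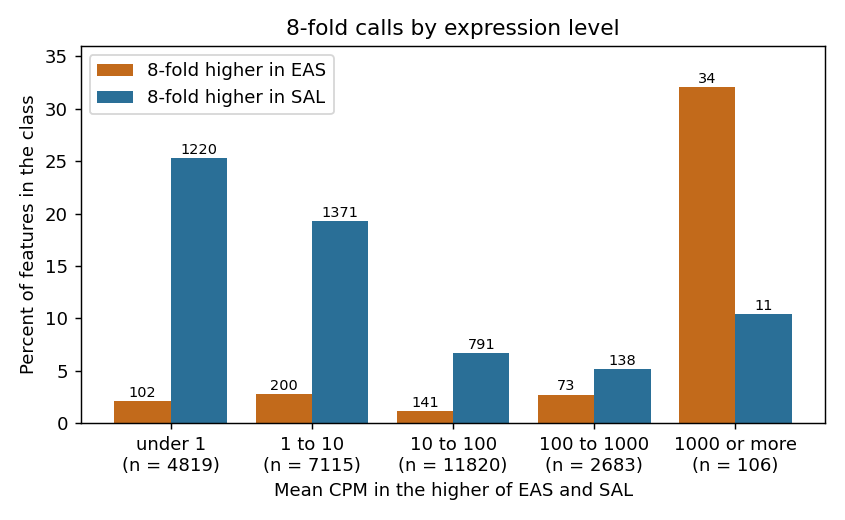
Percent of features called 8-fold higher in EAS or in SAL (bars from 0, with the number of features above each), by mean CPM in the higher of the 2 tissues. SAL-high features outnumber EAS-high features in each class under 1000 CPM, and the 34 EAS-high features exceed the 11 SAL-high features above it.

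The other tissues, whose libraries had no part in choosing the calls apart from the shared estimate of spread and the low-count filter, placed the EAS-high and SAL-high features differently. Some features passed that filter for their level in End, AS, Emb or Per, so the placing was partly set by the filter. Filtering on the 8 EAS and SAL libraries alone left 24289 features to test. Of the 550 EAS-high features, 74.4% had their highest level elsewhere in End and 12.4% in Per. Of the 3531 SAL-high features, 58.3% had it in Per, 18.1% in AS, 17.4% in Emb and 6.23% in End. Over all features tested the shares were 29.8% for End, 33.1% for Per, 18.4% for AS and 18.7% for Emb. These shares leave out EAS and SAL. By mean level over all 6 tissues, EAS was highest for 60.5% of the EAS-high features and SAL for 29.8% of the SAL-high features. Part of each set stood above the rest of the seed in all libraries, 45.5% of the EAS-high and 19.5% of the SAL-high features. Both sets were already chosen on EAS against SAL, which is part of the 6-tissue ranking and of this comparison. No share over all features tested is given for either, so their percentages cannot be set against a background. For 250 of the EAS-high features, all 4 EAS libraries lay above each library of the other 5 tissues, and 94 of these averaged 20 CPM or more in EAS. The next highest tissue was End for 171 of them. For 690 of the SAL-high features, all 4 SAL libraries lay above the other 20 libraries, with a median of 3.09-fold over the next highest tissue, which was Per for 354 and End for 145.

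**Figure D3:**
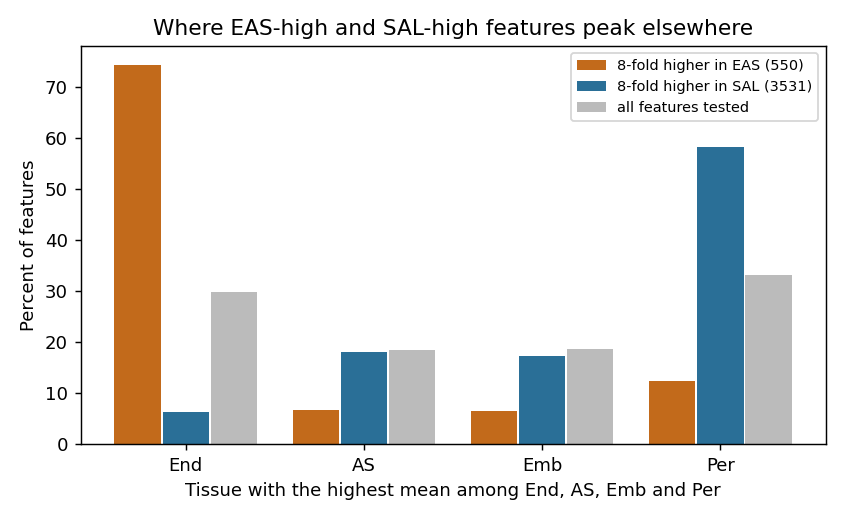
Percent of features (bars) by which of End, AS, Emb and Per had the highest mean level, for features 8-fold higher in EAS, features 8-fold higher in SAL and all features tested. EAS and SAL themselves are left out of this ranking. Among End, AS, Emb and Per, the highest was End for 74.4% of EAS-high features and Per for 58.3% of SAL-high features.

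Lists of tissue-enriched features were drawn from the End, AS, Emb and Per libraries alone, with a feature at least 8-fold higher in its tissue than in each of the other 3, at an adjusted p under 0.05. For the embryonic list, Emb and AS each had to exceed both End and Per. For comparison, 35.7% of all features tested were called higher in EAS and 43.1% higher in SAL. Of 548 End-enriched features, 429 were higher in EAS and 14 in SAL, with a median log2 fold change of 2.37 against -0.14 over all features. Their summed level was 139655 to 236943 CPM in EAS libraries, 17504 to 28909 CPM in SAL libraries and 297302 to 378084 CPM in End libraries. The median End-enriched feature stood at 68.3% of its End level in EAS and at 13.0% in SAL. For the summed level, EAS libraries lay above all SAL libraries and below all End libraries.

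Of 1412 Per-enriched features, 55 were higher in EAS and 1095 higher in SAL, and 783 of these were 8-fold higher in SAL. Over all features tested, 35.7% were higher in EAS, 43.1% higher in SAL and 13.3% 8-fold higher in SAL. The median log2 fold change of the Per-enriched features was -3.45, or -2.99 with features at 0 reads set to their counting bound. Summed levels were 2060 to 2492 CPM in EAS libraries, 10102 to 19509 CPM in SAL libraries and 61668 to 70403 CPM in Per libraries. Within SAL, replicate 1 was highest at 30.0% of the mean of Per and replicate 2 lowest at 15.5%, while EAS libraries stood between 3.16% and 3.83%. The ratio to pericarp was uneven across features: in SAL the quartiles were 5.06% and 27.2% of the Per level, and 21 features were at or above it. The part of pericarp RNA in the SAL values was not tested. Without SAL replicate 1, 607 features were 8-fold higher in EAS and 3487 in SAL. Among all 3531 SAL-high features, 1202 (34%) had their 4 SAL libraries above each Per library, with no share over all features given. With the Per-enriched features set aside, 544 features were 8-fold higher in EAS and 2748 in SAL.

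Of the 909 features of the embryonic list, 56 were higher in EAS, 531 were higher in SAL and 322 were not called. Over all features tested, 35.7% were higher in EAS and 43.1% higher in SAL. The median log2 fold change of the list was -1.86, or -1.44 at the counting bounds. The summed level of the list was 1368 to 1897 CPM in EAS libraries and 5853 to 6820 CPM in SAL libraries, which did not overlap. AS libraries held 55546 to 63276 CPM. The median feature of this list stood at 0.862% of its AS level in EAS and at 5.39% in SAL, and 162 of the features had 0 reads in EAS against 67 in SAL. The part of embryo RNA in these values was not tested.

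**Figure D4:**
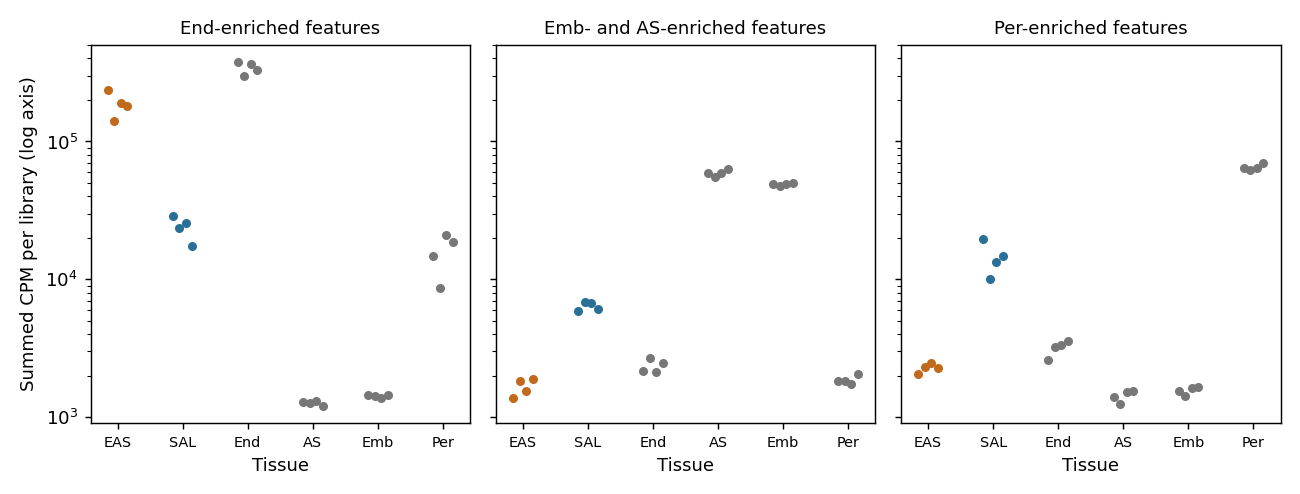
Summed CPM per library (vertical log axis, 1 point per library) of End-enriched, Emb- and AS-enriched and Per-enriched features in the 6 tissues. EAS libraries lie between SAL and End for the first list (139655 to 236943 CPM in EAS, 17504 to 28909 CPM in SAL), and SAL libraries lie above EAS libraries for the other lists.

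By the rule for naming genes, 192 features qualified toward EAS and 604 toward SAL, and the 2 identifiers of largest fold are given for each direction. Zm00001d002884 had 21.0, 16.6, 29.9 and 19.9 CPM in EAS replicates 1 to 4, against 0.0594, 0, 0.0643 and 0.0508 CPM in SAL replicates 1 to 4. It averaged 1.43 CPM in End and 0.536 CPM in Per, so EAS was its highest tissue (edgeR log2 fold change 8.64 ± 0.41 SE, adjusted p = 1.74e-14). Zm00001d040593 had 249, 240.3, 406 and 297 CPM in EAS, against 4.95, 3.19, 1.96 and 2.47 CPM in SAL. It too was highest in EAS, with 16.6 CPM in End and 21.7 CPM in Per (edgeR log2 fold change 6.58 ± 0.32 SE, adjusted p = 2.73e-14).

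Toward SAL, Zm00001d051110 had 0.0477, 0.0880, 0.102 and 0.120 CPM in EAS, against 195, 259, 318 and 222 CPM in SAL. Its next highest tissues were Per at 73 CPM and End at 42.3 CPM (edgeR log2 fold change -11.40 ± 0.38 SE, adjusted p = 6.9e-17). Zm00001d042683 had a single read in EAS, in replicate 2, against 25, 15.8, 24.2 and 21.1 CPM in SAL. With 1 read against 4306, the SAL to EAS ratio was 3807 (95% counting interval 683 to 150400). It averaged 5.57 CPM in Per and 3.28 CPM in End. The rule for naming required that EAS and SAL libraries not overlap, so this holds for the 4 genes by choice.

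Most microRNA precursors were lower in EAS than in SAL. Of 48 tested loci, 5 were higher in EAS and 27 higher in SAL at an adjusted p under 0.05 (10.4% and 56.2%, against 35.7% and 43.1% of all features). At 8-fold, by the fitted fold, the counts were 2 toward EAS and 17 toward SAL (4.17% and 35.4%, against 2.07% and 13.3% of all features). Of the 17, 9 had 0 reads in EAS, and 4 of these 9 had a bound under 8-fold. Most loci were low, and 37 of the 48 stayed under 1 CPM in the higher tissue. Of those 37, 13 were 8-fold higher in SAL, or 35.1%, where 25.3% of all features under 1 CPM were. The median log2 fold change of the 48 was -1.89, or -1.70 with loci at 0 reads set to their counting bound, against -0.14 and -0.11 over all features. EAS had 0 reads in 16 loci, 3 of which had 0 reads in SAL as well. In 26 loci the 4 SAL libraries lay above the 4 EAS libraries, and in 4 loci the EAS libraries lay above, where 39.3% and 33.7% of all features did so. The tested loci passed a low-count filter over 6 tissues, so some were kept for their level in the embryo or pericarp. The other 106 listed loci were not tested, and none of them exceeded 51 reads over the 4 libraries of EAS or of SAL.

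The summed level of the listed loci was nonetheless higher in EAS, at 51.3 to 68.3 CPM per library, than in SAL, at 30.5 to 44.5 CPM. That order rested on 1 locus. MIR167g made up 70.9% to 78.9% of the sum in EAS libraries and 5.44% to 13.2% in SAL libraries. Without it, the sums were 12.7 to 19.2 CPM in EAS and 28.8 to 38.6 CPM in SAL.

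Among loci of the auxin response, the MIR167 family, whose microRNA acts on auxin response factors such as ARF6 and ARF8, was split between the 2 tissues. MIR167g had 47.6, 36.4, 45.9 and 49.1 CPM in EAS replicates 1 to 4, against 4.85, 5.85, 4.78 and 1.66 CPM in SAL replicates 1 to 4. The lowest EAS library thus stood well above the highest SAL library (edgeR log2 fold change 3.43 ± 0.28 SE, adjusted p = 1.28e-10). Its level in EAS was 44.7 ± 5.75 CPM, and its level in End was 56.9 ± 4.98 CPM (SD, n = 4). MIR167j was also higher in EAS, but on 23 reads in EAS against 1 read in SAL, a ratio of 26 whose 95% counting interval ran between 4.22 and 1072, and it was highest in pericarp at 0.416 ± 0.0605 CPM. MIR167e had 0 reads in the EAS libraries, against 1.09, 0.758, 0.933 and 0.931 CPM in SAL, which made it at least 53.6-fold lower in EAS (edgeR adjusted p = 5.34e-10). MIR167h likewise had 0 reads in EAS and 0.425 ± 0.244 CPM in SAL, at least 27.4-fold lower in EAS (edgeR adjusted p = 4.46e-08). Both of these were highest in pericarp, MIR167e at 1.42 ± 0.0919 CPM and MIR167h at 1.69 ± 0.136 CPM.

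The remaining MIR167 loci gave 1 call, toward EAS. MIR167a had 1.01 ± 0.479 CPM in EAS and 0.663 ± 0.410 CPM in SAL and was not called (edgeR adjusted p = 0.198), as was MIR167c at 0.129 ± 0.0507 and 0.173 ± 0.0720 CPM (edgeR adjusted p = 0.41). MIR167d was called higher in EAS, at 0.408 ± 0.220 CPM against 0.224 ± 0.00939 CPM in SAL (edgeR adjusted p = 0.0302). That call was lost in the fit with the replicate number as a block on the 8 libraries (edgeR adjusted p = 0.165) and without any of EAS replicates 1 and 2 and SAL replicates 1 and 3 (edgeR adjusted p between 0.0577 and 0.129). Its libraries overlapped, with EAS replicate 3 below all SAL libraries.

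The auxin receptor genes are targets of the microRNA made from MIR393. MIR393a had 0.0813 ± 0.0655 CPM in EAS and 0.472 ± 0.173 CPM in SAL (edgeR log2 fold change -2.45 ± 0.45 SE, adjusted p = 3.25e-05). MIR393c had 0 reads in EAS and 18 reads in SAL, 10 of them in SAL replicate 1 (at least 5.3-fold lower in EAS, edgeR adjusted p = 0.000763). Its level in pericarp was 1.65 ± 0.618 CPM. MIR390a, whose microRNA starts the TAS3 pathway against auxin response factors, had 0 reads in EAS and 13 in SAL, of which SAL replicate 3 held 9 and SAL replicate 2 none. It was at least 3.83-fold lower in EAS, and its call was lost without that library (edgeR adjusted p = 0.0101 with it and 0.0539 without). The MIR160 loci, which act on another class of auxin response factors, gave no call. MIR160d had 0 reads in both tissues, and MIR160b had 6 reads in EAS and 5 in SAL.

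Loci of the phase-change pathway, in which miR156 holds down SPL regulators and miR172 holds down AP2-like regulators, were also divided. MIR156j had 6.41, 7.76, 8.28 and 10.1 CPM in EAS, against 3.38, 4.93, 3.41 and 4.60 CPM in SAL. All 4 EAS libraries stood above the SAL libraries (edgeR log2 fold change 1.01 ± 0.21 SE, adjusted p = 0.000195). These were its highest tissues, since End averaged 0.647 ± 0.112 CPM and AS, Emb and Per at most 0.193 CPM. MIR156i went the other way, with 0 reads in EAS and 0.353 ± 0.103 CPM in SAL (at least 19.2-fold lower in EAS, edgeR adjusted p = 8.54e-08). MIR156l was called lower in EAS on 4 reads against 20 in SAL (edgeR adjusted p = 0.0316). That call was lost without any of the EAS replicates 1, 2 and 4 or SAL replicates 3 and 4 (edgeR adjusted p between 0.0568 and 0.171). The other 4 tested MIR156 loci held at most 8 reads over the 4 libraries of either tissue and were not called. MIR172e had 0 reads in EAS, against 1.09, 0.920, 0.917 and 0.525 CPM in SAL. It was at least 47.2-fold lower in EAS (edgeR adjusted p = 2.5e-06), and SAL was its highest tissue, with 0.0966 ± 0.0956 CPM in End and 0.0935 ± 0.0370 CPM in Per.

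**Figure D5:**
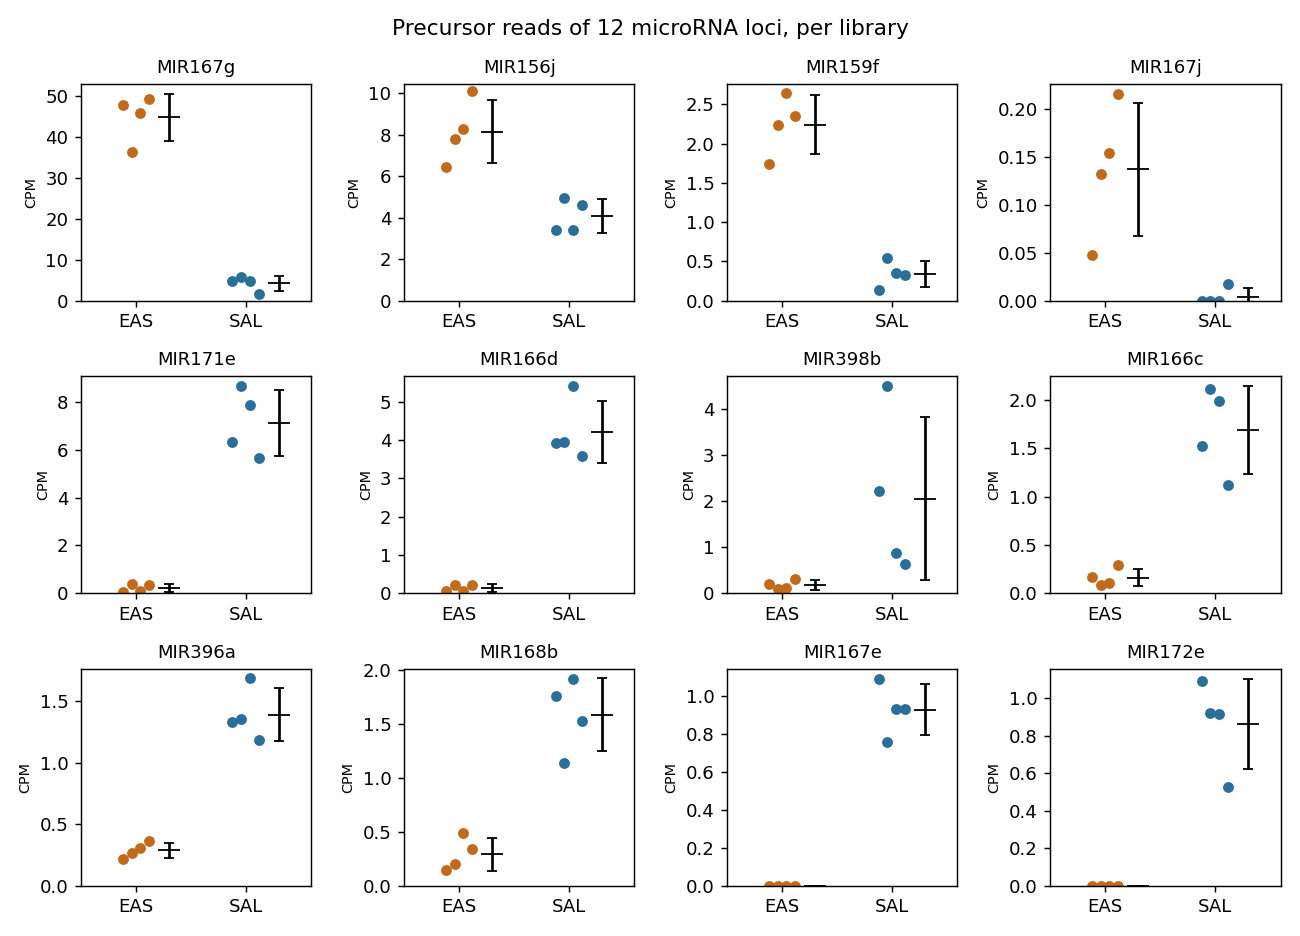
CPM per library (1 point each, linear axes from 0) of 12 microRNA loci in EAS and SAL, with the mean and SD of the 4 libraries at the right of each group. The loci were chosen for display after their values were seen. MIR167g, MIR156j, MIR159f and MIR167j lie higher in EAS, and the other 8 lie higher in SAL.

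The precursors of miR159 and miR319, related small RNAs that act on GAMYB and TCP regulators, gave a call in each direction. MIR159f had 1.74, 2.24, 2.64 and 2.35 CPM in EAS, against 0.139, 0.541, 0.354 and 0.322 CPM in SAL. Each EAS library was above each SAL library (edgeR log2 fold change 2.82 ± 0.27 SE, adjusted p = 2.06e-09), and no other tissue exceeded 0.609 ± 0.137 CPM, the level in Emb. MIR159a had 1 read in EAS and 0.330 ± 0.0611 CPM in SAL, a SAL to EAS ratio of 54.8 (95% counting interval 9.48 to 2200) (edgeR adjusted p = 3.63e-09). MIR319a and MIR319d had at most 1 read in either tissue.

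All 3 tested MIR171 loci were called 8-fold higher in SAL by the fitted fold, MIR171d with a bound of only 3.83-fold, where 13.3% of all features tested were so called. Their microRNA targets GRAS-domain regulators of meristem and tissue patterning. MIR171e was the most abundant, with 0.0477, 0.374, 0.102 and 0.359 CPM in EAS, against 6.33, 8.66, 7.90 and 5.65 CPM in SAL. The lowest SAL library was far above the highest EAS library (edgeR log2 fold change -4.97 ± 0.34 SE, adjusted p = 8.55e-12). SAL was also its highest tissue, followed by AS at 1.95 ± 0.334 CPM. MIR171f had 0 reads in EAS and 0.343 ± 0.153 CPM in SAL (at least 20.9-fold lower in EAS, edgeR adjusted p = 8.41e-07), with 2.05 ± 0.263 CPM in pericarp. MIR171d had 0 reads in EAS and 13 in SAL (at least 3.83-fold lower in EAS, edgeR adjusted p = 0.00116).

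The MIR166 family, whose microRNA restricts class III HD-ZIP regulators of organ polarity, was lower in EAS at 3 of 4 tested loci. Of all features tested, 43.1% were called lower in EAS. MIR166d had 0.0477, 0.220, 0.0513 and 0.215 CPM in EAS, against 3.92, 3.95, 5.40 and 3.59 CPM in SAL (edgeR log2 fold change -4.93 ± 0.35 SE, adjusted p = 1.07e-11). AS and Emb held more of it still, at 6.64 ± 1.58 and 6.09 ± 0.939 CPM. MIR166c had 0.161 ± 0.0908 CPM in EAS and 1.69 ± 0.457 CPM in SAL (edgeR log2 fold change -3.35 ± 0.33 SE, adjusted p = 3.3e-09). Here SAL was the highest of the 6 tissues and Emb followed at 0.488 ± 0.0730 CPM. MIR166h had 0.0541 ± 0.0248 CPM in EAS and 0.228 ± 0.101 CPM in SAL (edgeR adjusted p = 0.000335). MIR166a, with 0 reads in EAS and 1 in SAL, was not called.

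The 4 tested MIR398, MIR408 and MIR528 loci were all called 8-fold lower in EAS. Of all features tested 13.3% were so called, and 25.3% of those under 1 CPM in the higher tissue. Their microRNAs act on copper/zinc superoxide dismutases, laccases and related proteins. MIR398b had 0.191, 0.0880, 0.102 and 0.311 CPM in EAS, against 2.22, 4.49, 0.869 and 0.643 CPM in SAL (edgeR log2 fold change -3.44 ± 0.56 SE, adjusted p = 6.84e-06). SAL replicate 2 was the highest, and the 4 SAL libraries spread widely, yet none reached down to EAS. MIR408b showed the same library on top, with 0.596 CPM in SAL replicate 2 and 0.0677 to 0.158 CPM in the other SAL libraries. It had 3 reads in EAS and 28 in SAL, a SAL to EAS ratio of 8.25 (95% counting interval 2.55 to 42.4.) MIR528a had 1 read in EAS and 34 in SAL, a SAL to EAS ratio of 30.1 (interval 5.04 to 1222). MIR398a had 0 reads in EAS and 20 in SAL (at least 5.89-fold lower in EAS, edgeR adjusted p = 7.88e-05). The 8-fold size of the MIR398b difference rested on SAL replicate 2, without which it had an edgeR log2 fold change of -2.82 (adjusted p = 1.49e-05). MIR408b likewise fell short of 8-fold without SAL replicate 2 (-2.33), EAS replicate 1 (-2.66) or EAS replicate 3 (-2.69), with edgeR adjusted p between 0.0200 and 0.0232. Each of the 4 had its highest mean in Emb among the 6 tissues. For MIR398b, End was close, at 2.74 ± 0.926 CPM against 2.82 ± 0.605 CPM in Emb.

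In the other families with a call, EAS was the lower tissue, where 43.1% of all features tested were called lower in EAS. Of 3 MIR396 loci, which act on growth-regulating factors, MIR396a had 0.286 ± 0.0617 CPM in EAS and 1.39 ± 0.214 CPM in SAL (edgeR log2 fold change -2.27 ± 0.24 SE, adjusted p = 1.19e-08). MIR396e had 0.350 ± 0.101 and 0.750 ± 0.129 CPM (edgeR adjusted p = 0.0022), and MIR396d was not called (edgeR adjusted p = 0.0786). Both MIR168 loci, whose microRNA targets ARGONAUTE1, the effector of microRNA action, were lower in EAS. MIR168b had 0.291 ± 0.154 CPM in EAS and 1.58 ± 0.339 CPM in SAL (edgeR log2 fold change -2.47 ± 0.28 SE, adjusted p = 3.58e-08), and MIR168a had 0.0698 ± 0.0505 and 0.506 ± 0.0974 CPM (edgeR adjusted p = 3.22e-05).

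Of the MIR169 loci, whose microRNA targets NF-YA subunits of a transcription factor, MIR169c had 0.356 ± 0.0490 CPM in EAS and 1.12 ± 0.376 CPM in SAL (edgeR adjusted p = 6.97e-06). MIR169j had 0.200 ± 0.0985 and 0.692 ± 0.0360 CPM (edgeR adjusted p = 0.000372), and MIR169o was not called. MIR394b, whose microRNA targets an F-box gene, had 1 read in EAS and 0.339 ± 0.118 CPM in SAL, a SAL to EAS ratio of 51.3 (95% counting interval 8.85 to 2060) (edgeR adjusted p = 5.27e-07). SAL was its highest tissue. MIR2118c, whose microRNA starts the production of phased small RNAs, had 0.164 ± 0.0783 CPM in EAS and 0.350 ± 0.0755 CPM in SAL (edgeR adjusted p = 0.018), a call that was lost without EAS replicate 1 or 3 or SAL replicate 1 (edgeR adjusted p between 0.0520 and 0.0653). Neither MIR164 locus was called, and MIR399j had 0 reads in both tissues.

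Across the 6 tissues, SAL was the highest for 9 of the 27 SAL-high loci. Among End, AS, Emb and Per, the highest was Per for 12 of the 27, Emb for 10, AS for 4 and End for 1. Over all features tested the shares were 33.1%, 18.7%, 18.4% and 29.8% in that order. Some loci passed the low-count filter for their level in embryo or pericarp, so this placing was partly set by the filter. EAS was the highest of the 6 tissues for 2 of the 5 EAS-high loci, MIR156j and MIR159f. Read by replicate number, 25 of the 27 SAL-high loci were lower in EAS in 4 of 4 pairs. Of the 5 EAS-high loci, 4 were higher in EAS in 4 of 4 pairs. The loci were called from these same libraries, so the pair counts are no separate evidence.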

How the data were processed

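The deposited files hold whole-number read counts per feature, not normalised, with 1 file per library, as their contents show. TopHat2, Bowtie2 and B73 RefGen_v4 are listed in the submitters' processing notes. Counter settings, annotation and tool versions: not given in the sources used here. Libraries were paired-end, poly(A)-selected and unstranded, per the labels' protocols, so reads of overlapping genes cannot be separated and near-identical copies are uncertain. Summary rows that name no gene entered neither library sizes nor tests. Records outside genes made up 4.57% ± 0.159 in EAS and 6.00% ± 0.0466 in SAL libraries (exact permutation p = 0.0286), and records without a unique position 12.5% ± 0.939 and 11.2% ± 0.534 (SD, n = 4; exact permutation p = 0.0571).

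Counts were tested in R 4.3.3 with edgeR 4.0.16: filterByExpr with a minimum count of 10, TMM factors, a quasi-likelihood fit of tissue to 24 libraries and Benjamini-Hochberg adjustment over 26543 features, with fold changes as EAS over SAL. CPM use TMM-scaled library sizes, except for detected features, which use total reads. SE is the log2 fold change divided by the square root of F. Bounds and intervals cover counting error only. Genes named by identifier had an adjusted p under 0.05, 8-fold or more, 20 CPM in the higher tissue and no overlap, and every tested microRNA locus entered the description. The members and lists were chosen with earlier results of these data known.

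Per the labels, replicates 1 and 2 share harvest days between EAS and SAL. EAS replicate 3 reads 5 April, where replicate 3 of the other 5 tissues reads 4 May, so its day and month may be swapped. SAL replicate 4 has no date. Deviations from the tissue means correlated across features at 0.219, 0.0772, 0.227 and 0.102 between libraries numbered 1 to 4, and between -0.225 and 0.179 across numbers, highest for EAS replicate 2 with SAL replicate 4. The number was taken as a mark of the day from the labels, not from these correlations. The plants behind a replicate are not stated, so p-values cover only the spread of these libraries. No pair of replicates agreed within sampling noise (chi-square per degree of freedom 10.3 or more). Alternatives were other scalings and filters, DESeq2 1.42.0, the 8 libraries alone, a replicate block and leaving out libraries.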

Additional observations from a re-analysis of the deposited data

Results flagged for a closer look

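Of 97 groups of 4 libraries with any spread, 13 had a library far from its 3 fellows. In 11 of them a single read in 1 library stood against 0 in the other 3, which meets the criterion by construction, so the chance rate of about 1 in 20 does not apply to them. In EAS these were MIR528a, MIR394b and Zm00001d042683 in replicate 2 (0.0220 CPM each), and MIR159a, MIR319d and MIR156e in replicate 4 (0.0239 CPM each). In SAL they were MIR167j, MIR319a and MIR164g in replicate 4 (0.0169 CPM each) and MIR166a and MIR319d in replicate 1 (0.0198 CPM each). The remaining pair were both in SAL replicate 1: MIR393c at 0.198 CPM, against 0.0483 to 0.0677 CPM in the other SAL libraries, and MIR396d at 0.178 CPM, against 0.0483 to 0.0541 CPM. SAL replicate 1 was also the library with the highest summed level of Per-enriched features, 19509 CPM, and its part in these values was not tested.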

How the results depend on the processing

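No called value changed direction under any alternative. Of loci with no call, MIR160b and MIR319d, with at most 6 reads in either tissue, changed sign without EAS replicate 4 (-0.16 and -1.57, against 0.38 and 0.12 on the log2 scale), without SAL replicate 4 (-0.12 and -0.26) and with total reads (-0.07 and -0.21), and MIR319d without SAL replicate 3 (-0.28). Requiring 1 CPM in 4 of 8 libraries left 392 features 8-fold higher in EAS and 2207 in SAL. At any fold it left 8645 and 9170, of 21307 features tested. Of microRNA loci it left 1 toward EAS and 3 toward SAL at 8-fold, 3 and 5 at any fold, among fewer loci tested. Fitting the 8 libraries alone, or with the replicate block, gave 1 and 9 loci at 8-fold and 3 and 17 at any fold, again with fewer loci tested. The 8 libraries alone, without the block, gave 508 and 2893 features at 8-fold. At any fold they gave 9439 and 10181, of 24289 features tested. The replicate block on 24 libraries changed no call, and the block on 8 libraries ended only the MIR167d call. A call at 2-fold gave 3709 and 7838 features and 4 and 27 loci, and at 32-fold 74 and 1289 features and 0 and 9 loci, toward EAS and SAL. Scaling by total reads, added after seeing the data, gave 358 features 8-fold and 5349 at any fold higher in EAS and 1 microRNA locus at 8-fold. EAS then held 7.72% of 8-fold calls instead of 13.5%, and 25.3% of all calls instead of 45.3%. Leaving out features enriched in other tissues, also added later, left 329 toward EAS. Under a 32-fold enrichment rule the mean summed CPM was 116.79 in EAS and 1473.1 in SAL for pericarp-enriched features, and 58.433 and 290.84 for embryo- and scutellum-enriched features, since fewer features qualify. MIR167d lost its call under DESeq2 (adjusted p = 0.0521), the 8 libraries alone (edgeR adjusted p = 0.0823) and total reads (edgeR adjusted p = 0.330). MIR396d, MIR164b and MIR156f gained a call under total reads, and one each without SAL replicate 3, EAS replicate 3 and SAL replicate 4. The causes were not tested. Leaving out each library in turn gave 547 to 607 features 8-fold higher in EAS and 3487 to 3697 in SAL, 2 to 3 and 16 to 18 microRNA loci, and a share of records without a unique position 0.81011 to 1.526 percentage points higher in EAS. Without EAS replicate 2 that share had an exact permutation p of 0.0286. That p was not adjusted over the 4 measures, and with all libraries the adjusted permutation p was 0.0571. MIR168a and MIR156l passed 8-fold toward SAL without EAS replicates 1 and 3 in that order, and MIR159f toward EAS without SAL replicate 2. Low depth limits the microRNA loci, 37 of 48 of which stayed under 1 CPM.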

Other observations

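Taken number by number, on log2(CPM + 0.5), 223, 251, 300 and 227 features were 8-fold higher in EAS in pairs 1 to 4, and 1390, 1008, 1358 and 1004 were 8-fold higher in SAL. SAL-high features thus outnumbered EAS-high features in each pair. The pairs were made of the same 8 libraries as the calls, so these counts are no separate evidence. There were 0 features held at 1 CPM or above by all 4 EAS libraries that lacked reads in SAL, and 35 held so by all 4 SAL libraries that lacked reads in EAS. For the 250 EAS-high features that stood above the rest of the seed, the median fold over the next highest tissue was 5.00, and 86 of them were 8-fold above it. Of the 690 such SAL-high features, 82 were 8-fold above the next highest tissue. Both sets were chosen from these same libraries, and no share over all features is given for them. Setting aside the features enriched in any of the other tissues left 329 features 8-fold higher in EAS and 2501 in SAL.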
